A study of Mus musculus with 5 samples.

Results

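Prostanoids are short-lived lipid messengers made from arachidonic acid, and 9 genes of their synthesis, breakdown and reception are described here in mouse skin. They were taken by symbol from the 27998 genes of the count tables, and each symbol had 1 row. Of the 9 genes, 7 encode enzymes (Ptgs1, Ptgs2, Ptges, Ptgis, Ptgds, Tbxas1 and Hpgd) and 2 encode receptors (Ptger2 and Ptger4). The libraries are droplet-based single-cell RNA-seq of live-sorted cells from the skin of C57BL/6 mice. In the 3 wounded libraries, mice received a 6 mm punch wound at 7 weeks of age, and a 10 mm punch around it was taken after 4 days. The 2 un-wounded libraries are normal adult skin, with no age given in the labels. No genetic change or drug is named for either group. The labels do not say whether libraries came from separate mice, so p-values measure only the spread between these libraries.

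The cyclooxygenases Ptgs1 and Ptgs2 turn arachidonic acid into prostaglandin H2, the shared precursor; Ptgs1 is known as the constitutive form and Ptgs2 as the form induced by cytokines, growth factors and injury. Terminal synthases then divide the pathway: Ptges makes prostaglandin E2, Ptgis prostacyclin, Ptgds prostaglandin D2 and Tbxas1 thromboxane A2. Hpgd oxidises and inactivates prostaglandin E2 inside cells, and Ptger2 and Ptger4 encode the EP2 and EP4 receptors, which raise cyclic AMP when prostaglandin E2 binds. In skin, prostaglandin E2 is known for its part in vasodilation, pain, immune cell behaviour and keratinocyte growth.

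The main measurement was the count of unique molecular identifiers (UMIs), which mark single captured RNA molecules, and levels are given as UMIs of a gene for every 1000000 UMIs of the same cells (CPM). These are 3' tags, so CPM carries no gene length, and levels are compared between samples and classes of cells, not between genes. After removal of doublets and poor cells, 7060, 4395 and 3987 cells remained in wounded libraries 1 to 3, against 5038 and 5137 cells in un-wounded libraries 1 and 2. The median UMIs per kept cell ranged over 6083 to 7937 in wounded and 6019.5 to 6831 in un-wounded libraries. Clustering without the 9 genes gave 30 clusters, of which 27 could be named from marker genes in 16 classes, and of the other 3, all left without a class name, 2 are called by their leading genes. A class name such as fibroblasts stands for fibroblast-like cells by those markers; 1 cluster had NK cell and T cell genes among its leading genes and is called the NK and T cell cluster. Whole-library composition differed: the 8 basal keratinocyte markers summed to 927 to 12351 CPM in wounded libraries and 10520 to 28093 CPM in un-wounded ones, and the 10 macrophage markers to 579 to 2802 CPM in wounded and 60.9 to 298.6 CPM in un-wounded libraries. Mast cells and neutrophils had 0 cells in un-wounded libraries. Between 26 and 63 cell barcodes were shared by any pair of libraries.

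Ptgs1 lies on chromosome 2 (GRCm38, 36230426 to 36252272, plus strand) and Ptgs2 on chromosome 1 (150100031 to 150108227, plus strand). The 250 bases before each start are shown because Ptgs2 carried the largest difference between wounded and un-wounded skin of the 2 cyclooxygenases, while Ptgs1 was called in no comparison at the settings used throughout. Sequences are RefSeq promoter windows of GRCm38.p6, written 5′ to 3′ on the plus strand, and capitals mark matches to the motifs searched.

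Ptgs2, chr1:150099781-150100030: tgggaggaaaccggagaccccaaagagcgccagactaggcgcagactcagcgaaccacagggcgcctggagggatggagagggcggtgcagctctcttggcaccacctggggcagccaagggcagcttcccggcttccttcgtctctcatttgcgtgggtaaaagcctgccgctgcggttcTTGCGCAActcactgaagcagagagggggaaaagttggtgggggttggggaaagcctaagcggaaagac

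Ptgs2, chr1:150100033-150100062: agtcaccactaCGTCACGTGgagtccgctt

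Ptgs1, chr2:36230176-36230425: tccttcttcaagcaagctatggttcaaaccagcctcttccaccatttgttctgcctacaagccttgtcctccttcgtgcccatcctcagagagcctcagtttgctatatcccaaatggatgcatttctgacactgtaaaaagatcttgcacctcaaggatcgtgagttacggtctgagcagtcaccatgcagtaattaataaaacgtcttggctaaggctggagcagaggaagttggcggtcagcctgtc

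Both strands of the window of 250 bases before and 50 bases after each start were searched for TGACGTCA (the cyclic AMP response element) and its short form TGACG, for the AP-1 letters TGANTCA, for the NF-kappaB letters GGGANTNCC, for the C/EBP letters TTGCNNAA, for the E-box letters CACGTG and for the letters TATAAA of the TATA box. The Ptgs2 window held a C/EBP match at -69 to -62, where the start base counts as 0, and the second Ptgs2 stretch holds the short form at 13 to 17, whose last bases overlap an E-box at 16 to 21. The upstream Ptgs1 stretch held no match to these motifs, and neither did its whole window. Of 32544 promoter windows of the same length, 10.8% held the C/EBP letters, 20.9% the short response element and 7.17% the E-box, while the remaining motifs were in 13.6% (TATA box), 1.80% (full response element), 7.79% (AP-1) and 3.96% (NF-kappaB). Promoter windows were matched for 8 of the 9 genes, Ptgis being without one. In windows not printed here, Ptgds had an AP-1 match at -35 to -29, and Tbxas1 had one at -61 to -55 and 2 overlapping TATA box matches at -13 to -8 and -11 to -6. Hpgd had a TATA box match at 4 to 9, and Ptger2 a C/EBP match at 39 to 46.

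Whole wounded libraries were compared with whole un-wounded libraries to see which genes of the pathway differed in the skin as sampled. Ptgis, the prostacyclin synthase, was abundant in wounded libraries and nearly missing in un-wounded ones. Ptgs2 was higher in every wounded library than in either un-wounded one, and so were the low-count genes Tbxas1 and Ptger2, but none of these passed the test. With so few libraries, separate groups can arise by chance. The share of all genes with separate groups is not given here, so separation is only a description, in whole libraries and in the classes below. Ptgs1, Ptges, Ptgds, Hpgd and Ptger4 had overlapping groups.

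Ptgis had 23.4, 16.7 and 35.5 CPM in wounded libraries 1 to 3 (1275, 525 and 1412 UMIs), against 0 and 0.234 CPM in un-wounded libraries 1 and 2 (0 and 9 UMIs). The groups were far apart, and the log2 fold change was 7.69 ± 1.01 (SE, adjusted p = 0.0483, edgeR quasi-likelihood test with Benjamini-Hochberg adjustment over 15476 genes). Ptgs2 had 142, 353 and 305 CPM in wounded libraries and 38.7 and 27.5 CPM in un-wounded libraries, means of 267 ± 110 CPM (SD, n = 3) and 33.1 ± 7.91 CPM (SD, n = 2). All 3 wounded libraries were above both un-wounded ones, with wounded 1 the lowest of them, and the log2 fold change of 3.05 ± 0.54 missed the threshold of 0.05 (adjusted p = 0.0678). Tbxas1 had 1.26, 4.87 and 6.44 CPM in wounded libraries and 0.0316 and 0.338 CPM in un-wounded libraries. Its log2 fold change of 4.52 ± 1.14 also missed the threshold (adjusted p = 0.0942), as did that of Ptger2 at 2.92 ± 0.65 (adjusted p = 0.0825).

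All 9 genes passed the filter on low counts, and 1 was called, against 0.614% of all genes tested. The called gene, Ptgis, was nearly missing in un-wounded libraries and passed that filter through the wounded ones. Ptger2 had 0.953, 2.48 and 2.21 CPM in wounded libraries, against 0.222 and 0.286 CPM in un-wounded libraries, so its groups did not overlap either. Ptgs1, Ptges, Ptgds, Hpgd and Ptger4 had adjusted p-values between 0.432 and 0.885, with log2 fold changes between -0.76 and 0.12. In whole libraries, fewer cells of a type and less RNA per cell cannot be told apart. The Ptgis call was lost without wounded 2 (adjusted p = 0.0625), wounded 3 (0.208), un-wounded 1 (0.171) or un-wounded 2 (0.0538), by edgeR's quasi-likelihood test, and without wounded 1 the test also called Ptgs2 (0.0112), Tbxas1 (0.0187) and Ptger2 (0.0162).

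**Figure D1:**
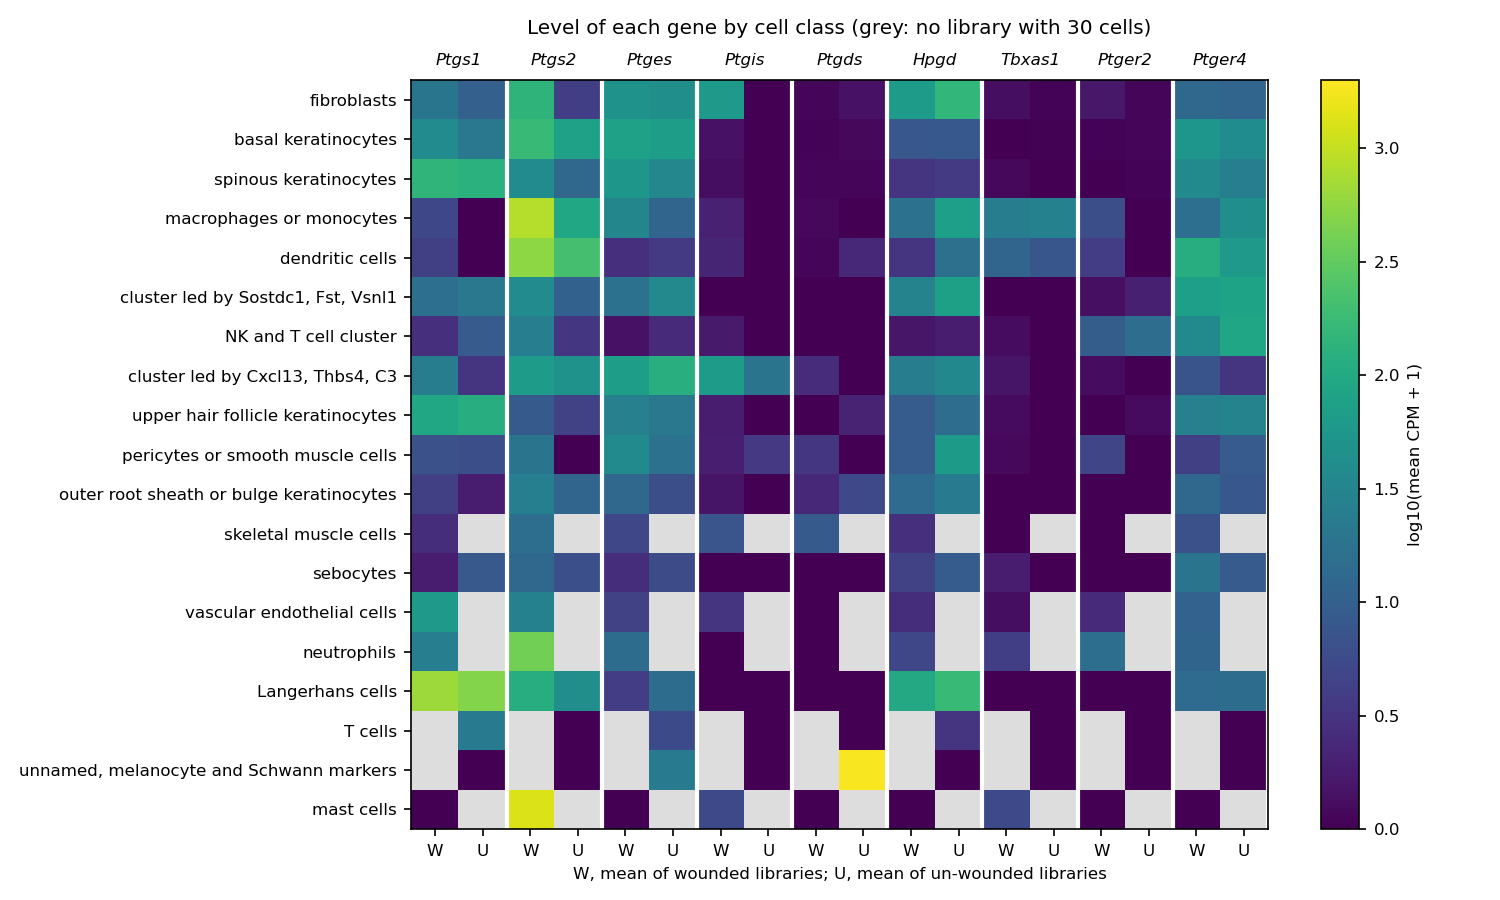
Mean level of each gene in each class of cells, as log10 of CPM + 1, for wounded (W) and un-wounded (U) libraries; grey marks a class with no library of 30 cells in that group. Ptgs2 is spread over myeloid cells, keratinocytes and, in wounded libraries, fibroblasts, while Ptgis is concentrated in fibroblasts and the cluster led by Cxcl13, Thbs4 and C3.

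In fibroblasts, the matrix-producing cells of the dermis, the comparison asks which prostanoid genes differed within 1 kind of cell. Ptgs2 was low in un-wounded fibroblasts and 44.0-fold higher in wounded ones, the first-ranked gene of 13142 tested. Ptgis UMIs were counted in wounded fibroblasts of all 3 libraries and in no un-wounded cell of the class as named. Hpgd, the enzyme that breaks prostaglandin E2 down, was lower in each wounded library than in either un-wounded one without passing the test, and Ptges did not differ beyond its spread.

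Ptgs2 had 143, 117 and 164 CPM in wounded fibroblasts (2156, 1393 and 2430 UMIs from 1811, 1599 and 1198 cells), against 2.60 and 3.71 CPM in un-wounded fibroblasts (6 and 52 UMIs from 478 and 2022 cells). The means were 141 ± 23.5 CPM (SD, n = 3) in wounded and 3.16 ± 0.787 CPM (SD, n = 2) in un-wounded fibroblasts, and no library of either group came near the other group. The log2 fold change was 5.46 ± 0.34 (adjusted p = 0.000706, edgeR quasi-likelihood test), and it stayed past the threshold in all 17 alternatives tried, between 3.51 and 5.87. A Ptgs2 UMI was found in 21.6%, 20.9% and 33.6% of wounded fibroblasts and in 1.26% and 1.68% of un-wounded fibroblasts. After each cell was thinned to 1500 UMIs, leaving out 7 shallower cells of un-wounded 1, the shares were 7.40%, 8.07% and 10.9% in wounded and 0.212% and 0.297% in un-wounded fibroblasts.

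Skeletal muscle cells are set beside the fibroblasts as a class with little Ptgs2. They were chosen for that, so their lying below wounded fibroblasts is no result of its own. A Ptgs2 UMI was found in 4.11%, 10.1% and 6.67% of muscle cells of wounded libraries 1 to 3, with median depths of 4083.5, 3795 and 6822.5 UMIs, against 6495, 6364 and 9184.5 UMIs in wounded fibroblasts and 4857 and 6811.5 UMIs in un-wounded fibroblasts. Thinned to 1500 UMIs, the muscle shares were 1.37%, 1.45% and 1.11%, beside 7.40% or more in wounded fibroblasts. For every Il1b UMI, a cytokine transcript of inflammatory myeloid cells, wounded fibroblasts held 4.60, 0.781 and 1.44 Ptgs2 UMIs, wounded macrophages 0.191, 0.307 and 0.148, and muscle cells of wounded libraries 0.481, 0.104 and 0.121. The ratio in fibroblasts was therefore above that in macrophages of the same library in all 3 wounded libraries. Wounded basal keratinocytes held 8.997, 0.96 and 2.38 Ptgs2 UMIs for every Il1b UMI, above the fibroblasts of the same library each time. In un-wounded 2 the ratio was 0.675 in fibroblasts and 0.0407 in macrophages, so that order was not particular to wounded libraries. The source of the UMIs behind these ratios was not tested.

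Ptgis lies on chromosome 2 (GRCm38, 167191805 to 167240604, minus strand), where 2 antisense transcripts overlap it, and the sources used here do not state whether counting used strand. Wounded fibroblasts held 987, 324 and 1214 Ptgis UMIs, or 65.5, 27.1 and 81.7 CPM, against 0 UMIs in both un-wounded libraries. Pooled over the group, un-wounded fibroblasts allow at most 0.184 CPM (3 UMIs of 16314751), which makes wounded fibroblasts at least 328-fold higher. That bound leaves out the cluster led by Cxcl13, Thbs4 and C3, which had 7 of 7 fibroblast markers but took no name. Un-wounded cells of that cluster held 8 Ptgis UMIs, so the bound holds for the named class only. The quasi-likelihood test called Ptgis in fibroblasts (adjusted p = 0.00256), and 16 of 17 alternatives did too. With 0 un-wounded UMIs, Ptgis passed the filter on low counts through the wounded libraries alone. Its call is therefore no support beyond the counts themselves. A Ptgis UMI was found in 14.4%, 5.69% and 19.6% of wounded fibroblasts, against 0 of 478 and 0 of 2022 un-wounded cells; in basal keratinocytes of wounded libraries the share was 0.677%, 0% and 0.599%.

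Hpgd had 85.7, 82.8 and 28.9 CPM in wounded fibroblasts and 176 and 128 CPM in un-wounded fibroblasts, means of 65.8 ± 31.9 CPM (SD, n = 3) and 152 ± 33.8 CPM (SD, n = 2). The groups did not overlap, with wounded 3 the lowest, but the log2 fold change of -1.13 ± 0.39 did not pass (adjusted p = 0.142). Ptges had 36.8, 37.8 and 69.9 CPM in wounded fibroblasts and 42.9 and 44.3 CPM in un-wounded fibroblasts, overlapping groups with a log2 fold change of 0.25 ± 0.33 (adjusted p = 0.758). Ptgs1 had 27.3, 11.0 and 16.4 CPM in wounded fibroblasts and 10.4 and 8.14 CPM in un-wounded fibroblasts (log2 fold change 1.09 ± 0.38, adjusted p = 0.146, and 0.0362 without wounded 2), and Ptger4 had 8.88 to 16.8 CPM in wounded and 10.4 to 11.5 CPM in un-wounded fibroblasts. Of the 9 genes, 6 passed the filter on low counts in fibroblasts and 2 were called, both higher, against 4.94% of all genes tested. Ptgis, among those called, passed that filter through the wounded libraries alone.

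**Figure D2:**
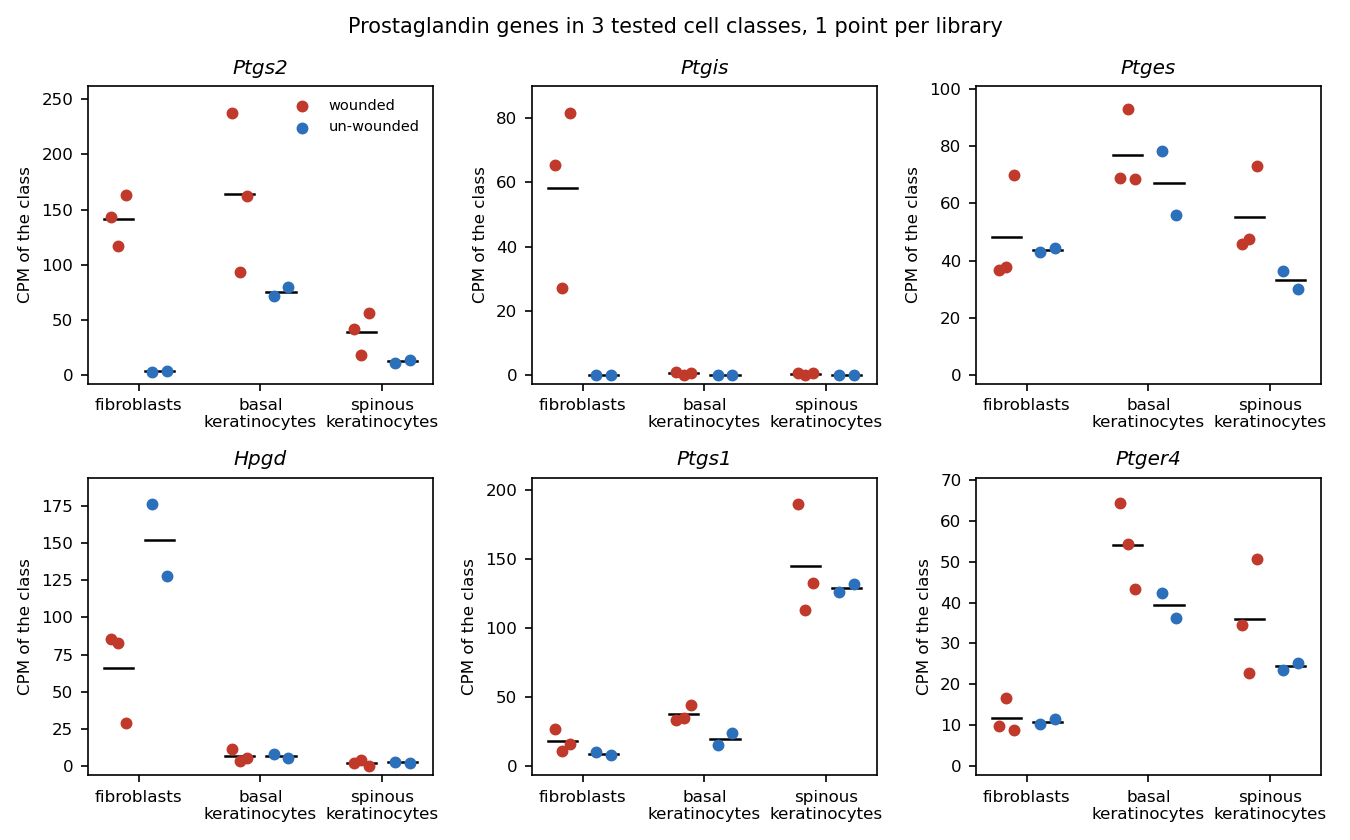
CPM of 6 genes in fibroblasts, basal keratinocytes and spinous keratinocytes, with 1 point per library and a line at the group mean; wounded libraries are red and un-wounded libraries blue. Ptgs2 in fibroblasts is 117 to 164 CPM in wounded libraries, against 2.60 and 3.71 CPM in un-wounded ones.

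The fibroblast class held different clusters in the 2 groups. A cluster led by Cxcl5, Cthrc1 and Ptx3 had 406, 159 and 378 cells in wounded libraries, against 0 and 3 cells in un-wounded libraries. It had 288, 266 and 224 CPM of Ptgs2, 147, 110 and 144 CPM of Ptgis, and 24.1, 25.3 and 10.4 CPM of Hpgd in wounded libraries 1 to 3. Almost all fibroblast Ptgis lay there: the other 4 fibroblast clusters had between 0 and 4.05 CPM in any wounded library and 0 UMIs in un-wounded ones. Ptgs2 was higher outside that cluster too. In the cluster led by Serpina3n, Dpep1 and Ccl19 it had 41.8, 96.0 and 117 CPM in wounded cells, against 0 and 7.07 CPM in un-wounded cells. The cluster led by Igfbp2, Qpct and Stc1 had 33.5, 23.3 and 37.2 CPM of Ptgs2 in wounded cells and 0 and 0.931 CPM in un-wounded cells, so its groups were also separate.

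With the Cxcl5, Cthrc1 and Ptx3 cluster left out, a choice made after seeing the data, the remaining fibroblasts had 29.0, 69.0 and 84.8 CPM of Ptgs2 in wounded libraries, against 2.60 and 3.58 CPM in un-wounded libraries. Ptgs2 was still called, while Ptgis had 1.66, 0.553 and 1.23 CPM in wounded and 0 CPM in both un-wounded libraries and was no longer called (adjusted p = 0.129, edgeR quasi-likelihood test). Hpgd in these remaining cells had 134, 101 and 52.9 CPM in wounded libraries and 176 and 128 CPM in un-wounded libraries, and wounded 1 then lay above un-wounded 2. The cluster led by Cxcl13, Thbs4 and C3, which had 7 of 7 fibroblast markers but took no name, had 65.9, 60.4 and 63.8 CPM of Ptgis in 402, 301 and 210 wounded cells, against 17.8 CPM in 45 cells of un-wounded 2. That un-wounded value rests on 8 UMIs, and with both un-wounded libraries pooled the ratio was 3.81 (95% interval 1.92 to 8.87, counting error only).

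**Figure D3:**
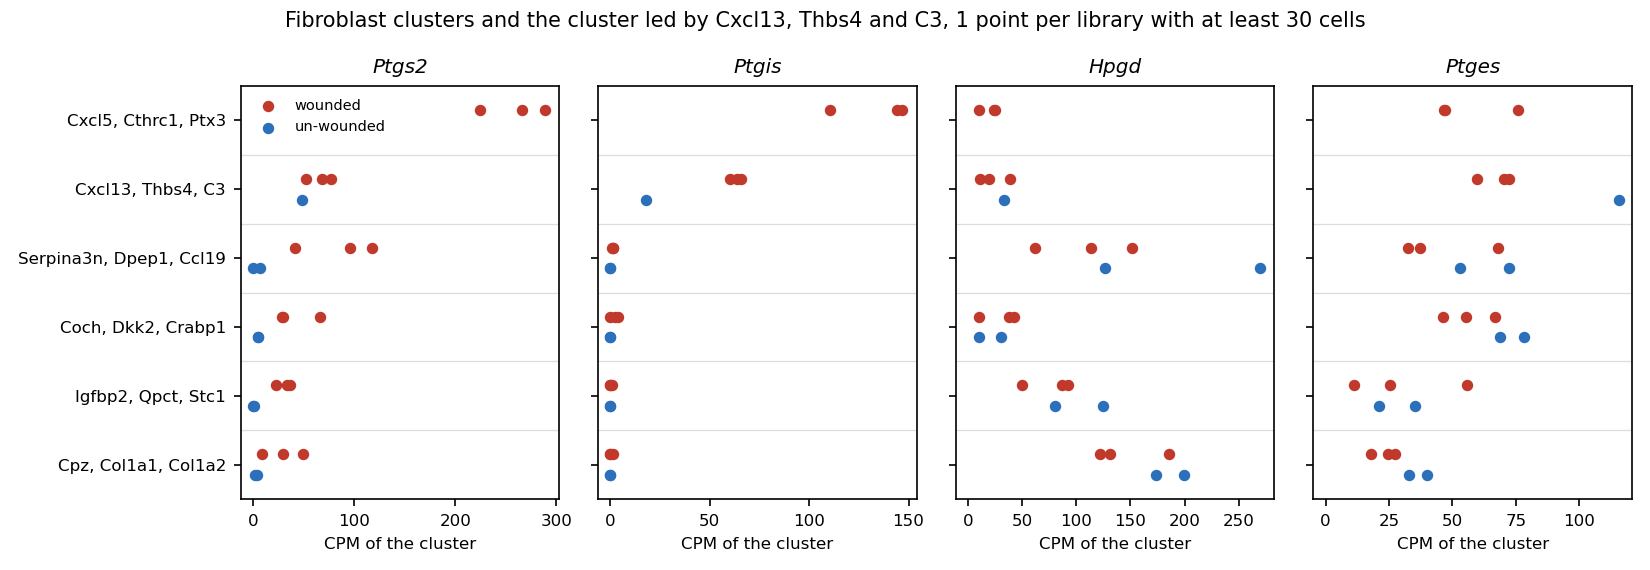
CPM of Ptgs2, Ptgis, Hpgd and Ptges in each fibroblast cluster and in the cluster led by Cxcl13, Thbs4 and C3, wounded above un-wounded, for libraries with at least 30 cells of the cluster. Ptgis is high in the Cxcl5, Cthrc1 and Ptx3 cluster (110 to 147 CPM) and in the Cxcl13, Thbs4 and C3 cluster, while Hpgd is low in the first of these and highest in the cluster led by Cpz, Col1a1 and Col1a2.

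Other marker lists were read in the same fibroblast sums. The macrophages or monocytes markers summed to 64.5, 96.4 and 136 CPM in wounded fibroblasts and 71.9 and 98.7 CPM in un-wounded fibroblasts, overlapping groups. The pericytes or smooth muscle cells markers summed to 438, 236 and 572 CPM in wounded and 83.6 and 60.3 CPM in un-wounded fibroblasts, and the skeletal muscle cells markers to 96.5, 73.1 and 86.1 CPM in wounded and 17.8 and 25.8 CPM in un-wounded fibroblasts. The basal keratinocytes markers summed to 643, 46.3 and 66.3 CPM in wounded and 3142 and 592 CPM in un-wounded fibroblasts. The part of these in the results was not tested. The 14 immediate early and dissociation stress genes summed to 17623, 18751 and 11696 CPM in wounded fibroblasts, against 23719 and 20308 CPM in un-wounded fibroblasts.

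In wounded fibroblasts, cells with a Ptgs2 UMI were often the cells with a Ptgis UMI. Ptgis was found in 46.0%, 16.5% and 39.7% of wounded fibroblasts with Ptgs2 and in 5.70%, 2.85% and 9.43% of those without it, in wounded libraries 1 to 3. Hpgd went the other way, in 17.9%, 29.6% and 13.9% of the cells with Ptgs2 and 38.7%, 34.3% and 25.5% of those without. Ptges was found in 41.2%, 31.7% and 51.6% of the cells with Ptgs2 and in 16.6%, 18.8% and 31.8% of those without. The direction was the same in all 3 libraries for each of these 3 genes. Cells with more UMIs show more of every gene, and these shares are given as a description.

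Keratinocytes, the cells of the epidermis, were compared in the basal and spinous layers, which divide and differentiate in turn. Ptgs2 was higher in wounded libraries in both layers, by less than in fibroblasts. Basal keratinocytes also carried most Ptgs2 UMIs of un-wounded skin. Ptgs1, Ptges, Hpgd and Ptger4 passed the test in neither layer.

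Ptgs2 had 238, 93.1 and 162 CPM in wounded basal keratinocytes (1626, 34 and 167 cells) and 71.2 and 79.7 CPM in un-wounded ones (2276 and 991 cells), means of 164 ± 72.4 CPM (SD, n = 3) and 75.4 ± 5.99 CPM (SD, n = 2). The groups did not overlap, with wounded 2 the nearest to the un-wounded libraries, and the log2 fold change was 1.39 ± 0.33 (adjusted p = 0.0310, edgeR quasi-likelihood test over 11426 genes). Of the 24 Ptgs2 UMIs in basal keratinocytes of wounded 2, 62.5% came from 2 cells. The clusters of the class were unevenly spread over the libraries. One led by Serpinb2, Epgn and Krt16 had 575, 8 and 61 wounded cells and 196 and 56 un-wounded cells. One led by Fcgbp and Col17a1 had 201, 16 and 30 wounded cells and 972 and 668 un-wounded cells. A cluster led by Krt15, Krt14 and Sfn, the largest of the class in wounded 1, had 677, 5 and 42 wounded cells. It had 944 and 152 un-wounded cells. Within the Serpinb2, Epgn and Krt16 cluster Ptgs2 had 426, 241 and 332 CPM in wounded and 291 and 502 CPM in un-wounded cells, overlapping groups, and within the Fcgbp and Col17a1 cluster 14.3, 32.3 and 0 CPM in wounded and 8.35 and 3.87 CPM in un-wounded cells.

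In spinous keratinocytes Ptgs2 had 41.3, 18.1 and 56.0 CPM in wounded libraries (259, 8 and 106 UMIs) and 10.5 and 13.7 CPM in un-wounded libraries (75 and 95 UMIs). Every wounded library was above both un-wounded ones, and the log2 fold change was 1.99 ± 0.37 (adjusted p = 0.0085, edgeR quasi-likelihood test over 10641 genes). Skeletal muscle cells of the wounded libraries had 14.0, 22.5 and 7.08 CPM of Ptgs2, so in wounded 2 the spinous level was below theirs. For every Il1b UMI, wounded spinous keratinocytes held 1.89, 0.182 and 0.906 Ptgs2 UMIs, below the macrophages of the same library in wounded 2 and above them in the other two. In each layer 5 of the 9 genes passed the filter on low counts and 1 was called, against 1.72% of all genes in basal and 1.64% in spinous keratinocytes. The basal call was lost without wounded 1 (adjusted p = 0.125), un-wounded 1 (0.358) or un-wounded 2 (0.185) with doublets kept (0.508), without TMM scaling (0.0703) and with clusters named without a score margin (0.438), and the spinous call without wounded 3 (0.0618), un-wounded 1 (0.233) or un-wounded 2 (0.0723), all by edgeR's quasi-likelihood test.

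Ptgs1 was tested in the same sums. It had 33.7, 34.9 and 44.1 CPM in wounded basal keratinocytes, against 15.7 and 24.2 CPM in un-wounded ones, and the groups did not overlap, but the log2 fold change of 1.15 ± 0.31 missed the threshold (adjusted p = 0.0626, edgeR quasi-likelihood test). In spinous keratinocytes it had 190, 113 and 133 CPM in wounded and 126 and 132 CPM in un-wounded libraries, overlapping groups. Ptges in spinous keratinocytes had 45.7, 47.6 and 72.9 CPM in wounded libraries and 36.3 and 30.1 CPM in un-wounded libraries, separate groups that did not pass (log2 fold change 0.98 ± 0.31, adjusted p = 0.177, and 0.0246 without wounded 1). Ptger4 had 64.4, 54.3 and 43.2 CPM in wounded basal keratinocytes and 42.4 and 36.2 CPM in un-wounded ones, with wounded 3 just above un-wounded 1 (log2 fold change 0.66 ± 0.28, adjusted p = 0.422).

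Of the remaining classes, 3 had 30 cells in every library, and none of the 9 genes was called there by the quasi-likelihood test. In hair follicle keratinocytes of the outer root sheath or bulge only Ptgs2 passed the filter on low counts (log2 fold change 1.18 ± 0.48, adjusted p = 0.450), against 0.56% of 6070 genes called; its unadjusted p was under 0.05, as it was for 9.13% of those genes. In the NK and T cell cluster Ptgs2 (2.86 ± 0.95, adjusted p = 0.181) and Ptger4 (-0.95 ± 0.35, adjusted p = 0.225) were tested, both with an unadjusted p under 0.05 like 14.2% of the 5812 genes, of which 1.24% were called. In upper hair follicle keratinocytes 5 of the genes were tested, 0 had an unadjusted p under 0.05, against 3.78% of 7900 genes, of which 0.19% were called. DESeq2 called 0 of the 9 genes in each of these 3 classes.

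The wound difference in fibroblasts was set against that in basal keratinocytes in 1 model with the library as a block. Ptgs2 had a log2 difference 4.17 ± 0.37 larger in fibroblasts (adjusted p = 7.37e-06, edgeR quasi-likelihood test over 13681 genes, rank 4). Hpgd had a log2 difference of -1.69 ± 0.33 (adjusted p = 0.00754), being lower in wounded than in un-wounded fibroblasts while in basal keratinocytes it had 11.5, 3.88 and 5.41 CPM in wounded and 8.34 and 5.69 CPM in un-wounded libraries. Ptgs1 (0.19, adjusted p = 0.916), Ptges (-0.16, adjusted p = 0.918) and Ptger4 (-0.69, adjusted p = 0.361) did not pass. Of the 9 genes, 5 were tested and 2 called, against 2.84% of all genes. The Hpgd call was lost without wounded 1 (adjusted p = 0.0524), with DESeq2 (0.159), with doublets kept (0.354), with clusters named without a score margin (0.213) and without the Cxcl5, Cthrc1 and Ptx3 cluster (0.229), and the Ptgs2 call with doublets kept (0.354).

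**Figure D4:**
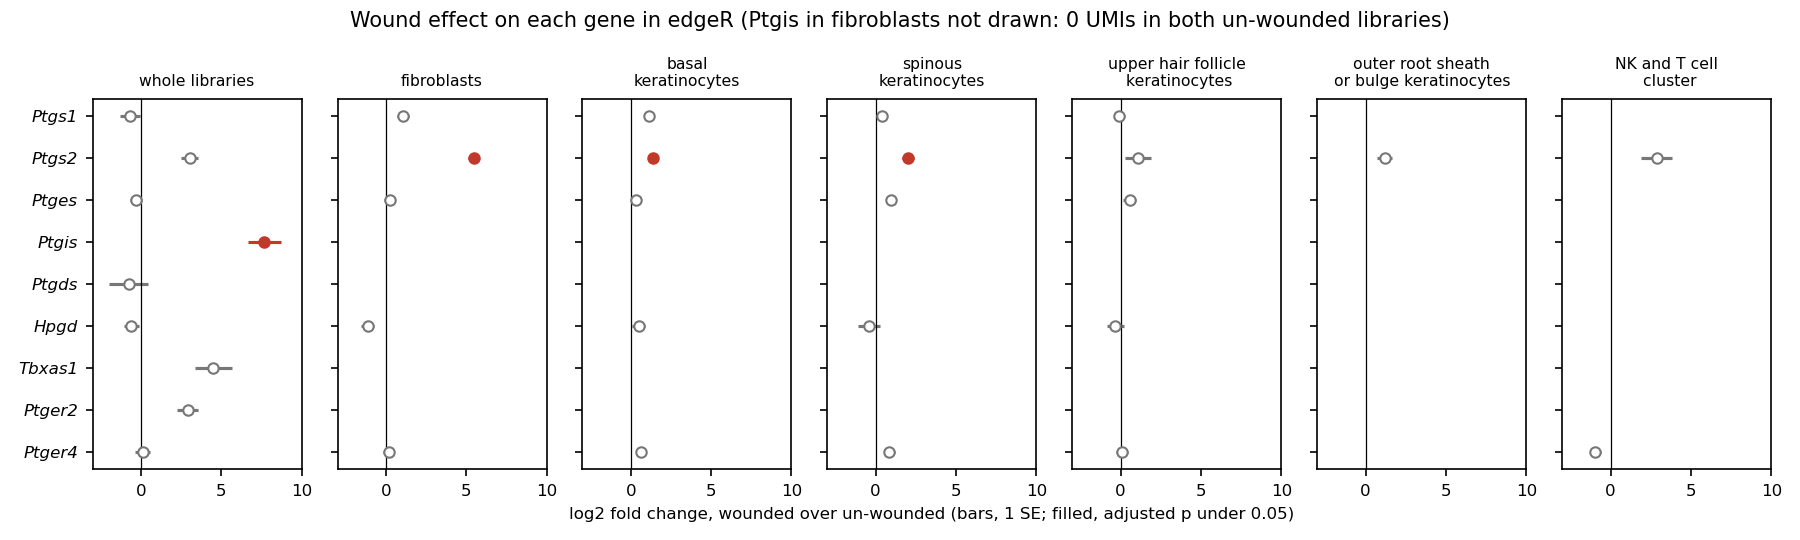
Log2 fold change of wounded over un-wounded, with 1 SE to each side, for each gene and comparison; filled points have an adjusted p under 0.05, and Ptgis in fibroblasts, with 0 UMIs in un-wounded cells, is not drawn. Ptgs2 stands at 5.46 in fibroblasts, 1.99 in spinous and 1.39 in basal keratinocytes.

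The source of each gene's UMIs was read across the 19 classes and clusters, as a description with no test between classes. For Ptgs2 the main source differed between the groups: macrophages, dendritic cells and fibroblasts in wounded libraries, basal keratinocytes in un-wounded ones. Macrophages held 16.8%, 31.7% and 50.01% of Ptgs2 UMIs in wounded libraries 1 to 3, against 0.572% and 1.61% in un-wounded libraries. Basal keratinocytes held 35.1%, 0.217% and 2.97% in wounded libraries and 85.8% and 62.1% in un-wounded libraries. Fibroblasts held 27.8%, 12.6% and 20.1% in wounded libraries and 0.490% and 4.91% in un-wounded libraries. The wounded libraries differed among themselves, wounded 1 being the one in which basal keratinocytes were the largest source.

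By CPM within the class, Ptgs2 in wounded libraries was highest in mast cells, at 1321 CPM in 48 cells of wounded 3 and 2341 and 1022 CPM in 21 and 17 cells of wounded 1 and wounded 2. Macrophages followed with 706, 966 and 912 CPM in wounded libraries, against 92.8 CPM in 41 cells of un-wounded 2 (17 UMIs), and dendritic cells had 296, 756 and 607 CPM in wounded libraries, against 210 CPM in 108 cells of un-wounded 2. Neutrophils ranged over 152 to 842 CPM in wounded libraries. The ranges of macrophages, dendritic cells and neutrophils overlapped, and so did those of basal keratinocytes and fibroblasts, while wounded fibroblasts lay below wounded dendritic cells in every library. Among wounded macrophages, the cluster led by Arg1, Lyz2 and F10 had 919, 1105 and 1150 CPM of Ptgs2 and the cluster led by C1qb, C1qc and C1qa had 116, 63.8 and 141 CPM, so the clusters did not overlap.

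Ptgs1 had its highest level in Langerhans cells, the dendritic cells of the epidermis, while spinous keratinocytes held the largest share of its UMIs in every library but wounded 2. Langerhans cells had 648 CPM in wounded 1 and 490 CPM in un-wounded 1, the 2 libraries with at least 30 of them, a mean of 569 ± 112 CPM (SD, n = 2). Spinous keratinocytes followed with a mean of 139 ± 29.6 CPM (SD, n = 5) and upper hair follicle keratinocytes with 99.8 ± 31.8 CPM (SD, n = 5), whose ranges overlapped. Spinous keratinocytes held 41.2%, 14.9% and 30.9% of Ptgs1 UMIs in wounded libraries and 54.6% and 63.9% in un-wounded libraries. Those shares were lower in all 3 wounded libraries; the libraries held 694, 45 and 127 spinous cells in wounded and 903 and 631 in un-wounded skin. In wounded 2, fibroblasts held 39.1% of Ptgs1 UMIs, more than any other class.

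**Figure D5:**
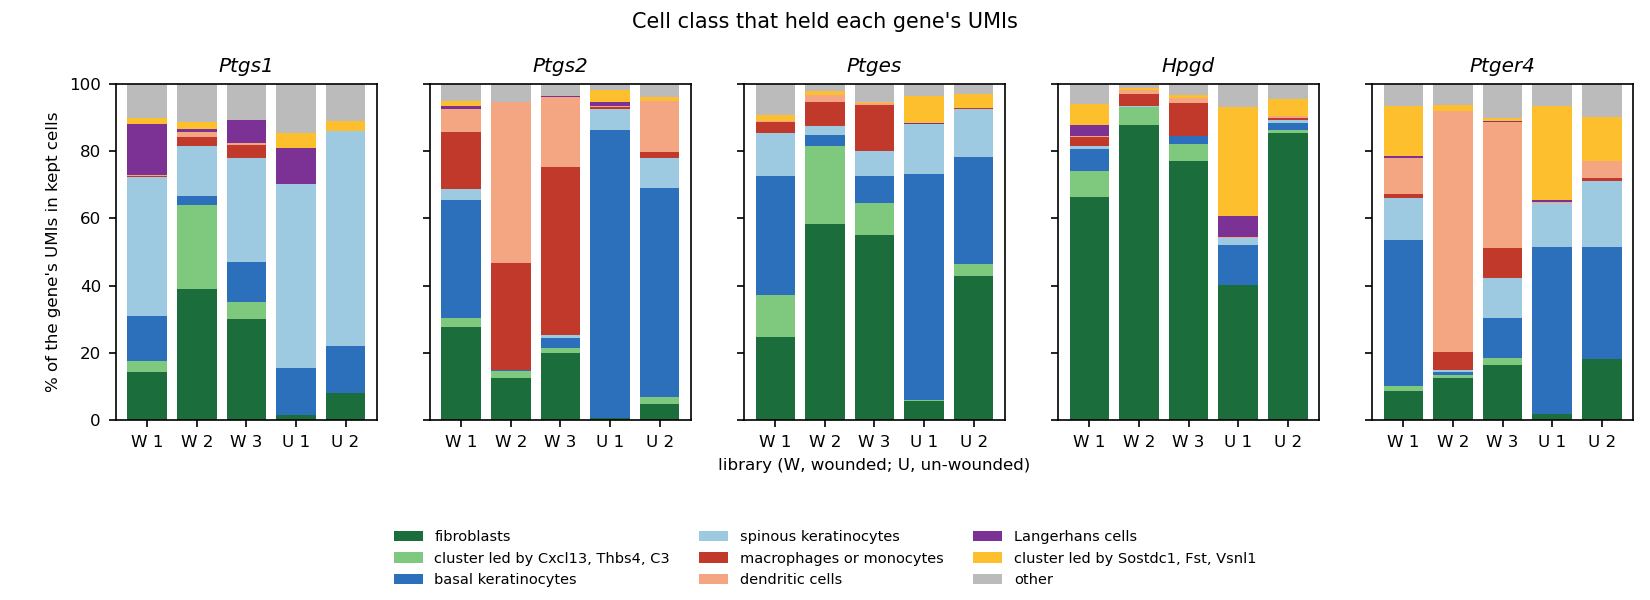
Percent of each gene's UMIs found in each class, stacked for every library, wounded 1 to 3 (W) and then un-wounded 1 and 2 (U), for Ptgs1, Ptgs2, Ptges, Hpgd and Ptger4. Basal keratinocytes hold 85.8% and 62.1% of Ptgs2 UMIs in un-wounded libraries, and Hpgd UMIs are mostly in fibroblasts in all libraries but un-wounded 1.

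Ptges, on chromosome 2 (GRCm38, 30889471 to 30929863, minus strand), had no class that stood apart. The cluster led by Cxcl13, Thbs4 and C3 had a mean of 79.5 ± 24.6 CPM (SD, n = 4) and basal keratinocytes 73.0 ± 13.7 CPM (SD, n = 5), and these did not differ beyond their spread. Fibroblasts held 24.8%, 58.2% and 55.1% of Ptges UMIs in wounded libraries and 5.75% and 42.8% in un-wounded libraries. Within wounded macrophages the Arg1, Lyz2 and F10 cluster had 52.2, 17.5 and 50.8 CPM of Ptges, against 4.08, 2.06 and 2.56 CPM in the C1qb, C1qc and C1qa cluster. Within basal keratinocytes the Serpinb2, Epgn and Krt16 cluster had 91.6 and 84.3 CPM of Ptges in wounded 1 and wounded 3, and 172 and 150 CPM in un-wounded 1 and 2.

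Ptgds, on chromosome 2 (25466709 to 25470046, minus strand), was found mostly in 1 small cluster in 3 of the 5 libraries. Whole libraries had 153, 71 and 46 Ptgds UMIs in wounded and 4 and 276 UMIs in un-wounded samples. An unnamed cluster of 104 cells held 139, 64 and 11 of them in wounded libraries and 0 and 252 in un-wounded libraries, or 90.8%, 90.1% and 23.9% in wounded and 0% and 91.3% in un-wounded libraries. In wounded 3, skeletal muscle cells held 14 of the UMIs and the cluster led by Cxcl13, Thbs4 and C3 held 10. The unnamed cluster mixes cells with melanocyte and with Schwann cell markers. All 466 UMIs of the cluster were in the 36 cells with more melanocyte than Schwann cell marker UMIs, and 0 were in the 68 cells with more Schwann cell marker UMIs. The whole-library level followed the melanocyte markers, whose 5 genes summed to 16.2, 11.3 and 4.23 CPM in wounded libraries and 1.27 and 35.6 CPM in un-wounded libraries.

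Tbxas1, on chromosome 6 (38875404 to 39084585, plus strand), was a gene of macrophages and dendritic cells. Wounded macrophages had 22.2, 19.5 and 28.8 CPM, against 27.3 CPM in un-wounded 2, which rests on 5 UMIs. Dendritic cells had 9.33, 10.1 and 13.2 CPM in wounded libraries and 6.55 CPM in un-wounded 2, below macrophages in every library. Pooled over libraries, macrophages had a ratio of wounded over un-wounded of 0.877 (95% interval 0.398 to 2.41, counting error only), with 6 UMIs on the un-wounded side. The libraries held 329, 488 and 994 macrophages in wounded and 5 and 41 in un-wounded skin. The part of cell numbers in the whole-library Tbxas1 values was not tested. The gene Hipk2 overlaps Tbxas1 on the other strand.

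Hpgd, on chromosome 8 (56294585 to 56321043, plus strand), was the 1 enzyme of breakdown among the 9 genes. By level it was highest in Langerhans cells, with 97.7 CPM in wounded 1 and 172 CPM in un-wounded 1, and next in fibroblasts, and the 2 ranges overlapped. Fibroblasts held 66.3%, 87.9% and 77.1% of Hpgd UMIs in wounded libraries and 40.0% and 85.5% in un-wounded libraries. Among fibroblast clusters, the one led by Cpz, Col1a1 and Col1a2 had 185, 122 and 131 CPM in wounded and 200 and 174 CPM in un-wounded cells, and the one led by Coch, Dkk2 and Crabp1 had 43.0, 37.5 and 10.3 CPM in wounded and 9.78 and 30.9 CPM in un-wounded cells. In wounded macrophages the C1qb, C1qc and C1qa cluster had 83.7, 28.8 and 23.7 CPM of Hpgd, against 8.82, 7.94 and 3.74 CPM in the Arg1, Lyz2 and F10 cluster, the opposite order to Ptgs2.

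Ptger4, on chromosome 15 (5206661 to 5244187, minus strand), was the receptor with the wider spread of the 2. Dendritic cells had 99.3, 165 and 72.9 CPM in wounded libraries and 58.9 CPM in un-wounded 2, and held 10.6%, 71.9% and 37.6% of all Ptger4 UMIs in wounded libraries and 5.04% in un-wounded 2. The keratinocyte cluster led by Sostdc1, Fst and Vsnl1 had 132, 58.5 and 25.2 CPM in wounded and 113 and 49.0 CPM in un-wounded libraries, and its range overlapped that of dendritic cells. The NK and T cell cluster had 40.9, 30.3 and 36.8 CPM in wounded libraries, against 111 and 59.6 CPM in un-wounded libraries, so every wounded value was below both un-wounded ones. The un-wounded 1 value rests on 31 cells. At Leiden resolution 2, NK cells numbered 30, 182 and 68 in wounded and 2 and 37 in un-wounded libraries. Icos-led T cells numbered 28, 267 and 132 in wounded and 30 and 121 in un-wounded libraries. The part of this mix in the Ptger4 levels was not tested. Ttc33 overlaps Ptger4 on the other strand.

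Ptger2, on chromosome 14 (44988195 to 45003820, plus strand), had 52, 78 and 88 UMIs in whole wounded libraries and 7 and 11 UMIs in un-wounded ones. By level it was highest in neutrophils, at 23.8, 12.6 and 6.93 CPM in wounded libraries, values that rest on 5, 5 and 1 UMIs. The NK and T cell cluster had 3.40, 9.51 and 12.3 CPM in wounded libraries and 27.8 CPM (2 UMIs) and 0 CPM in un-wounded libraries. Macrophages or monocytes had 3.78, 5.23 and 6.63 CPM in wounded libraries (7, 19 and 44 UMIs) and 0 UMIs in un-wounded libraries, which held 5 and 41 of these cells. Wounded fibroblasts had 0.597, 0.419 and 0.808 CPM, below the macrophages of the same library in all 3. An antisense transcript overlaps Ptger2.

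Of the other genes of the pathway, 16 belong to synthesis and clearance. In fibroblasts 15 were tested, of which 3 rose and 2 fell, against 4.94% of all genes called in either direction. The median log2 fold change of the list was 0.12, against -0.03 over all genes tested. Akr1c18 (3.26 ± 0.47, adjusted p = 0.00622), Akr1b8 (1.47 ± 0.29, adjusted p = 0.0229) and Ptgr1 (1.09 ± 0.22, adjusted p = 0.0240) rose in wounded fibroblasts, by edgeR's quasi-likelihood test. Ptgr1 encodes an enzyme that reduces prostaglandin breakdown products and also acts on leukotriene B4. Akr1c18 is an aldo-keto reductase known for progesterone breakdown, and Akr1b8 is another aldo-keto reductase. Slco2a1, the prostaglandin transporter that takes prostaglandins into cells, fell by 1.69 ± 0.29 on the log2 scale (adjusted p = 0.0124), with 6.17, 5.53 and 6.86 CPM in wounded fibroblasts and 15.2 and 25.9 CPM in un-wounded ones. The secreted phospholipase Pla2g2e fell by 0.96 ± 0.21 (adjusted p = 0.0344), with 48.8, 51.5 and 44.5 CPM in wounded and 115 and 85.5 CPM in un-wounded fibroblasts. The most abundant of the list over whole libraries were Akr1b3, Ptges3 and Akr1c18.

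In basal keratinocytes 14 genes of that list were tested and Akr1b8 rose (1.61 ± 0.34, adjusted p = 0.0140), while in spinous keratinocytes and in whole libraries 0 of 14 and 0 of 15 were called by the quasi-likelihood test. Over all genes, 1.72% were called in basal keratinocytes, 1.64% in spinous keratinocytes, 0.614% in whole libraries and 2.84% for the difference between fibroblasts and basal keratinocytes. The difference between fibroblasts and basal keratinocytes was called for Akr1c18 (3.96, adjusted p = 0.00011) and for Pla2g4a (1.81, adjusted p = 0.00391), the cytosolic phospholipase that frees arachidonic acid. Pla2g4a had 13.9, 7.29 and 10.3 CPM in wounded and 5.63 and 2.57 CPM in un-wounded fibroblasts, and 37.8, 31.0 and 23.4 CPM in wounded and 45.4 and 30.6 CPM in un-wounded basal keratinocytes.

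Of 7 other prostanoid receptors, 4 were tested in fibroblasts and 6 in whole libraries, and 0 were called in either, with a median log2 fold change of -0.39 in fibroblasts, against -0.03 over all genes. The most abundant were Ptgfr, Tbxa2r and Ptgir; Ptgfr had 74.2, 63.8 and 36.9 CPM in wounded and 109 and 77.6 CPM in un-wounded fibroblasts. Of 10 cytokines and factors known to induce Ptgs2 or Ptges in other systems, 9 were tested in fibroblasts and 2 rose: Il1b (log2 fold change 4.29 ± 0.69, adjusted p = 0.0098) and Il1a (adjusted p = 0.0171), which had 4.64, 2.60 and 1.41 CPM in wounded and 0 CPM in both un-wounded fibroblast samples. Il1a passed the filter on low counts in fibroblasts through the wounded libraries alone, so its call there is no support beyond its counts. The median log2 fold change of the 9 tested genes was 0.73. For each list here, the shares of all genes called were 4.94% in fibroblasts, 1.72% in basal keratinocytes and 0.614% in whole libraries. In basal keratinocytes the same 2 genes rose, Il1b by 3.11 (adjusted p = 0.00024) and Il1a by 2.32 (adjusted p = 0.00051). Il1b was called higher in all 6 classes tested. It had 31.1, 149 and 114 CPM in wounded fibroblasts and 5.200 and 5.497 CPM in un-wounded fibroblasts, beside 29.2, 217 and 58.4 CPM in skeletal muscle cells of wounded libraries; the part of free RNA in these calls was not tested. Of the 14 immediate early and dissociation stress genes, 1 rose in fibroblasts (Ier3, 1.55, adjusted p = 0.0374), and the list's median was -0.39. Of 12 lipoxygenase and leukotriene genes, 6 were tested in fibroblasts and 0 were called, with a median of 0.29, and Alox5ap, Lta4h and Alox12e were the most abundant. All adjusted p-values are from edgeR's quasi-likelihood test.

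For each gene, the genes with the most similar pattern were found over 69 sums of a class in a library, by Pearson's correlation of log2(CPM + 10) among 7464 genes. Ptgs2 was most like Il1b (0.830), Ccl9 (0.811) and Nlrp3 (0.797). Ptgis was most like Sfrp2 (0.920), Prg4 (0.907) and Ptx3 (0.907), and Ptgds like Vat1l (0.978), Cmtm5 (0.977) and Pmel (0.976). Ptgs1 was most like Tspan8 (0.787), Ptges like Zfp385a (0.732), Hpgd like Col16a1 (0.685) and Ptger4 like Tap1 (0.697), with weaker likeness throughout. The sums share libraries and depth. Tbxas1 and Ptger2 stayed under 50 CPM in every sum and were not compared.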

How the data were processed

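The authors deposited 1 table of UMI counts per library, cells by genes, made with Cell Ranger 1.3.1 on the mm10 genome build, per the submitters' processing notes; counts are not normalized, and whether counting used strand is not given in the sources used here. Total UMIs were 59621412, 33537809 and 41654423 in wounded libraries and 33642571 and 41041406 in un-wounded libraries. Cells with under 200 genes or over 10% mitochondrial UMIs were removed, and doublets by Scrublet with an expected share that grows with the number of cells (scanpy 1.11.5). Cells were clustered (2000 variable genes without the 9 genes and the pathway lists, 30 components, Leiden resolution 1), and a cluster was named where at least 3 markers reached 10 CPM and its score led the next by 0.5; 169 markers in 25 lists were used, 3 of them not in the tables. The 9 genes and all lists were chosen with earlier results of these data known.

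UMIs were summed per library and class, and classes with at least 30 cells in every library were tested with edgeR 4.0.16 (its quasi-likelihood test after filterByExpr and TMM, Benjamini-Hochberg adjusted over all genes tested, called at an adjusted p under 0.05) and, as an alternative, DESeq2 1.42.0. The tests were checked on simulated data. Other classes are described by their UMIs. Intervals are exact (Clopper-Pearson or Poisson, 95%) and cover counting error only, and a count of 0 allows 3 UMIs. Named by rule were all 9 genes, of each list the 3 most abundant and every called gene, and the 3 most alike genes, of which all or the first are printed. Gene positions are from GENCODE M21 (GRCm38) and promoters from RefSeq. Alternatives changed the test, filter, normalization, cell filters, clustering, naming and samples.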

Additional observations from a re-analysis of the deposited data

Results flagged for a closer look

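Ptgs2 differed in its wound effect between classes. Its log2 fold change of wounded over un-wounded was 4.17 ± 0.37 larger in fibroblasts than in basal keratinocytes (adjusted p = 7.37e-06, edgeR quasi-likelihood test of the interaction). It was 5.46 ± 0.34 in fibroblasts and 1.39 ± 0.33 in basal keratinocytes, and the interaction remained past the threshold in 15 of 16 alternatives. Hpgd differed in the opposite direction, by -1.69 ± 0.33 (adjusted p = 0.00754), from a log2 fold change of -1.13 ± 0.39 in fibroblasts and 0.49 in basal keratinocytes, neither past the threshold alone; 11 of 16 alternatives kept the interaction. In fibroblasts without the cluster led by Cxcl5, Cthrc1 and Ptx3, the Ptgs2 interaction was still called and that of Hpgd was not (-0.93, adjusted p = 0.229). Causes of these differences were not tested.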

How the results depend on the processing

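The level in each gene's leading class moved by less than the spread between libraries in all 33 alternatives that gave a value. Another class led for Ptgis with doublets kept (scored as erythroid cells, 120 against 71.5 CPM). The same held for Ptger4 at Leiden resolution 2 (scored as B cells, 155 against 82.8 CPM). Under those settings no value was had for the leading class of Ptger2 (doublets kept) or of Ptges and Ptgis (resolution 2). These 2 names come from marker scores only. At resolution 2 the cluster scored as B cells was led by Cd209a, Pmaip1 and Irf8, with 0 B cell markers among its 10 leading genes. The cluster scored as erythroid there was led by Thbs4, Mgp and Hmcn2, also with 0 of its own markers. Leading genes of the erythroid-scored class with doublets kept are not given here. Of the 9 genes, the number called in whole libraries was 1; it was 4 with DESeq2, 2 with no filter on low counts, 0 with doublets kept, 0 without each gene's 2 highest cells and 0 to 4 without 1 library. In basal keratinocytes 1 was called; 3 with no filter, 0 without TMM, 0 with doublets kept, 2 at a minimum of 500 genes, 2 with pathway genes kept for clustering, 0 with no score margin, 2 without the 2 highest cells and 0 to 1 without 1 library. In spinous keratinocytes the range without 1 library was 0 to 2 around 1. In fibroblasts 2 were called; 4 with no filter, 1 without the Cxcl5 and Cthrc1 cluster and 2 to 3 without 1 library. In the NK and T cell cluster 0 were called, against 1 with no filter and 1 with doublets kept. Of the interaction's 2 calls, 1 was left with DESeq2, 0 with doublets kept, 1 with no score margin, 1 without the Cxcl5 and Cthrc1 cluster and 1 to 2 without 1 library. Over all genes DESeq2 called 2689 in whole libraries, against 95 by edgeR, and 1041 against 649 in fibroblasts. For the other settings the share of all genes called is not given here. Changes in these counts therefore cannot be read as particular to the 9 genes. DESeq2 also called Ptgs2 (adjusted p = 5.47e-07), Tbxas1 (5.58e-05) and Ptger2 (0.000673) in whole libraries.

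Among single genes, 38 alternative values changed sign, none of them of a called gene. Those from leaving out 1 library are given as the log2 range over all such omissions. In whole libraries these were Ptgds (-1.72 to 3.95), Ptger4 (-0.29 to 0.64) and Ptges (-0.57 to 0.086). In basal keratinocytes they were Hpgd (-0.23 to 0.79, and -0.44 with no score margin) and Ptges (-0.0060 with doublets kept), and in spinous keratinocytes Hpgd (-1.18 to 0.033). In fibroblasts they were Ptges (-0.16 to 0.45), Ptger4 (-0.13 to 0.34) and Ptgs1 (-0.0046 at Leiden resolution 2, -0.44 without the Cxcl5 and Cthrc1 cluster). In upper hair follicle keratinocytes Ptger4 ranged over -0.097 to 0.22 and was -0.10 without TMM, -0.020 at a 5% mitochondrial limit, -0.028 at 500 genes, -0.055 at resolution 2 and -0.044 without the 2 highest cells; Ptgs1 ranged over -0.49 to 0.10, Hpgd was 0.079 with doublets kept and 0.14 at the 5% limit, and Ptges -0.056 without the 2 highest cells. In the interaction Ptgs1 ranged over -0.39 to 0.57 and was -0.028 with DESeq2, -0.40 with doublets kept, -1.01 at resolution 2 and -1.35 without the Cxcl5 and Cthrc1 cluster, and Ptges ranged over -0.53 to 0.32 and was 0.092 with doublets kept and 0.13 with no score margin. The causes were not tested.

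The labels number replicates in both groups but do not say what a number marks, and only 2 pairs exist, so the numbers were not taken to pair the samples; deviations of same-numbered libraries correlated at 0.462 and 0.423 in whole libraries. With a replicate block, 0 of the 9 genes were called in whole libraries, 2 in basal keratinocytes, 4 in fibroblasts and 1 in the NK and T cell cluster. The share of all genes called with the block is not given here, so these counts cannot be read as particular to the 9 genes. Values that changed sign under the block were Ptgds 0.80 in whole libraries, Hpgd 0.026 in spinous keratinocytes, Ptges -0.18 in fibroblasts, and Ptgs1 0.13 and Ptger4 -0.069 in upper hair follicle keratinocytes. Not run were outer root sheath or bulge keratinocytes with pathway genes kept and the NK and T cell cluster at resolution 2. Counts of a few UMIs limit Tbxas1, Ptger2 and the un-wounded myeloid values, and 2 un-wounded libraries limit every comparison.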

Other observations

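Langerhans cells carried several genes of eicosanoid synthesis beyond Ptgs1 and Hpgd. Hpgds, the hematopoietic prostaglandin D synthase, had 977 CPM in Langerhans cells of wounded 1 and 1392 CPM in those of un-wounded 1, the libraries with at least 30 such cells (107 and 66). Ltc4s, the leukotriene C4 synthase, had 829 CPM in wounded 1 and 1021 CPM in un-wounded 1, and Alox5ap, a partner of 5-lipoxygenase, had 1035 CPM in wounded 1 and 800 CPM in un-wounded 1. Ptgds, the other prostaglandin D synthase, was in melanocyte-marker cells instead, so the 2 synthases had different leading classes. These genes were chosen after their values were seen.

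Sebocytes, the lipid-producing cells of sebaceous glands, led for Akr1c18, with 5221 CPM in wounded 1 and 3193 and 5759 CPM in un-wounded 1 and 2. The prostacyclin receptor Ptgir was highest in pericytes or smooth muscle cells, with 47.8 and 42.0 CPM in wounded 1 and wounded 3 and 128 and 91.7 CPM in un-wounded 1 and 2, so the wounded values were the lower ones. Pericytes had under 30 cells in wounded 2, and the difference was not tested.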
